A study of Mus musculus with 18 samples.

Results

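The 9 genes described here are transcription factors that set the identity of macrophages or shape how they respond to a stimulus: Spi1, Cebpa, Cebpb, Cebpd, Maf, Klf2, Klf4, Klf6 and Klf10. They were chosen by name, as the rows of the deposited gene table whose Ensembl identifier carries 1 of these symbols, and all 9 of the 50600 rows so named passed the filter on low counts that left 15663 genes for testing. RNA-seq was performed on mouse bone marrow-derived macrophages (BMDMs) grown for 8 days with GM-CSF, in 6 groups of 3 libraries that the submitters describe as biological replicates. The groups were unstimulated, 2 h of 100 ng/ml LPS after DMSO, and 2 h of LPS after defactinib, each in WT and in IRF5 KO cells. Defactinib, an inhibitor of the kinases FAK and PYK2, was given at 3.5 μM for 1 h before LPS, the lipopolysaccharide that activates Toll-like receptor 4. The unstimulated libraries are DMSO in the labels and carry an untreated mark in the table header. A figure caption of the study gives DMSO as the control pretreatment for unstimulated and LPS-treated cells alike. With the header at odds, whether the unstimulated libraries received vehicle is unclear. The study's purchased mice were C57BL/6 J males of 8 to 11 weeks, and the sources used here do not tie that age to the marrow donors or give the allele of the IRF5 KO mice.

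PU.1, the product of Spi1, is the master regulator of the myeloid lineage, and C/EBP-alpha, the product of Cebpa, works with it to open myeloid enhancers. C/EBP-beta and C/EBP-delta bind the same motif in stimulated macrophages and take part in the activation of inflammatory genes, while c-MAF (Maf) restrains self-renewal of macrophages and activates Il10. The Krüppel-like factors (KLFs) bind CACCC and GC-rich boxes: KLF2 and KLF4 are known for restraining or steering macrophage activation, KLF6 for promoting inflammatory gene expression, and KLF10 is a target gene of TGF-beta. IRF5 is the interferon regulatory factor that drives inflammatory cytokine genes downstream of Toll-like receptors, and the comparisons ask which of these factors change with LPS, with defactinib and with the loss of IRF5.

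The libraries held 39282181 to 61949143 read pairs assigned to genes, and the members had from 52 (Maf) to 79616 (Klf6) counts in a library. Irf5 itself was at 213 to 650 CPM (TMM-normalised counts, scaled to library size) in the WT libraries and at 335 to 435 CPM in those labelled IRF5 KO, and since counts summed over a whole gene cannot show a deleted exon, they do not check the genotype label. IRF5 KO LPS DMSO replicate 3 stood apart from the other libraries of its group. Its counts differed from theirs by a chi-square of 441 and 425 per gene, against 2.33 between replicates 1 and 2 and 3.82 to 183 within the other groups, and values without it are given beside the results of this group that it moved most. The spread of a gene was estimated over all 18 libraries, so this library also enters the SE of comparisons without its group. In the fit without it, only comparisons that use its group were read. Summed macrophage markers (8 genes, among them Adgre1, Csf1r and Lyz2) were at 18205 to 19152 CPM in IRF5 KO LPS defactinib, against 9897 to 12387 CPM in IRF5 KO LPS DMSO and 9740 to 15126 CPM in the other groups, and T, B and NK cell markers at 0.127 to 1.02 CPM. Neutrophil markers (8 genes, none under 1 CPM throughout) summed to 250 to 470 CPM in WT, and in IRF5 KO to 1091 to 1709 CPM unstimulated, 1184 to 1722 CPM after LPS and 2540 to 2725 CPM after LPS with defactinib, where Mmp8 made up 992 to 2563 CPM. Dendritic cell markers (7 genes, with Xcr1 under 1 CPM throughout) summed to 379 to 489 CPM in WT LPS DMSO and to 57.4 to 286 CPM in the other groups. Mast cell and basophil markers (7 genes, with Mcpt8, Ms4a2, Fcer1a and Prss34 under 1 CPM throughout) summed to 8.06 to 15.7 CPM in WT and to 43.2 to 73.2 CPM in IRF5 KO, and stromal and endothelial markers (7 genes, with Col1a1, Col1a2, Col3a1 and Pdgfrb under 1 CPM throughout) to 17.6 to 30.9 CPM in WT LPS DMSO and 2.49 to 10.5 CPM elsewhere. Their part in the differences below was not tested, and in bulk RNA fewer cells of a type and less RNA per cell cannot be told apart.

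Promoter sequences are shown because the bases just before a gene's start are where transcription factors are known to bind, and these members changed with LPS, genotype or both. They are those of the 5 members, of 9, with an entry in the RefSeq table (GRCm38.p6) and are printed 5′ to 3′ on the strand of the gene, ending at the base before the RefSeq start. Capitals mark the CRE core TGACG, the CCAAT box, the TATA box TATAAA and the MEF2 site, on either strand. The windows are chr7:35119043-35119292 (plus strand) for Cebpa, chr4:55532476-55532725 (minus strand) for Klf4, chr2:167688665-167688914 (plus strand) for Cebpb, chr8:72318812-72319061 (plus strand) for Klf2 and chr13:5861239-5861488 (plus strand) for Klf6.
Cebpa: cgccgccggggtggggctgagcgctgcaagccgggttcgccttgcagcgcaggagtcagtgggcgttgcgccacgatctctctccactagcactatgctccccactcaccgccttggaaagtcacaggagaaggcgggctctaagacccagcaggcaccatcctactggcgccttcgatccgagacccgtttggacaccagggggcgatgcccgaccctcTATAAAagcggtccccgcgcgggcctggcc
Klf4: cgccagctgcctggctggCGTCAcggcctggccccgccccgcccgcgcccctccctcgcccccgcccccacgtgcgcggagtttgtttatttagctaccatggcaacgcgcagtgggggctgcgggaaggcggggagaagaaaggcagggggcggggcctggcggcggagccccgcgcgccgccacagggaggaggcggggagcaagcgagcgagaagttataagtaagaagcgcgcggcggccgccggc
Cebpb: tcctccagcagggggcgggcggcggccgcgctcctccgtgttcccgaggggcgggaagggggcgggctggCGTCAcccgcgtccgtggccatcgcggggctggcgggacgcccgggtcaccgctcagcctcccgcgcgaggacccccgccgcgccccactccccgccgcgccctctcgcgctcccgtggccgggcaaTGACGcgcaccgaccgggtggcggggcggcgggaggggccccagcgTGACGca
Klf2: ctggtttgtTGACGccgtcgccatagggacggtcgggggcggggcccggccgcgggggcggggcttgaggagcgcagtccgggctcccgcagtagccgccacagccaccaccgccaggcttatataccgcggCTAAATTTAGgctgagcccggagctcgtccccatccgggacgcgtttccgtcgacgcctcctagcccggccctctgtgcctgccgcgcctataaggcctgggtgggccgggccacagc
Klf6: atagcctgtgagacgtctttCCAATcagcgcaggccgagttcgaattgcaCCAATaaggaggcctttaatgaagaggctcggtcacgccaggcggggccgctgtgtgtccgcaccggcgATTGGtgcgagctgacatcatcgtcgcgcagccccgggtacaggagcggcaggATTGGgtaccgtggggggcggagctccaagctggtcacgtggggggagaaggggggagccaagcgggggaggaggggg

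The 5 windows differed in the boxes they held. Cebpa had a TATA box 30 to 25 bases before the start, a sequence that 12.4% of 32851 RefSeq promoter windows of the same length hold. The Cebpb window held 3 CRE cores and those of Klf2 and Klf4 held 1 each, against 17.8% of all windows with at least 1. Klf2 had a MEF2 site 118 to 109 bases before its start, found in 0.508% of windows, and Klf6 had 4 CCAAT boxes, of which 33.8% of windows hold at least 1. GC boxes (GGGCGG) were in 4 of the 5 windows and the CACCC box that KLFs bind was in 3, against 32.7% and 52.0% of all windows. The letters of the full CRE (TGACGTCA), the AP-1 site (TGANTCA), a C/EBP site (TTGCNNAA), the PU.1 core (GAGGAA), the core of the interferon-stimulated response element (GAAANNGAA), the CArG box and the kB site were in none of the 5, and were in 1.55%, 6.75%, 9.56%, 23.3%, 7.13%, 1.47% and 3.90% of all windows. Both strands were searched. The CRE core is part of the full CRE, and the other motifs were counted with any overlap between them.

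Levels per kilobase of exon (RPKM) place the 9 genes on 1 scale. In unstimulated WT macrophages Spi1 was the highest at 170 ± 10.3 RPKM (SD, n = 3), followed by Klf6 (104 ± 3.47), Cebpa (82.5 ± 3.82), Cebpb (65.2 ± 15.9), Klf10 (17.2 ± 0.905), Klf4 (15.9 ± 0.713), Cebpd (4.37 ± 0.252), Klf2 (4.05 ± 0.431) and Maf (0.407 ± 0.0738). Libraries of neighbours in this order overlapped for Cebpa and Cebpb, for Klf10 and Klf4, and for Cebpd and Klf2. After LPS with DMSO in WT, Klf6 led at 222 ± 6.10 RPKM and Spi1 followed at 99.0 ± 10.9, while Klf2 and Klf4, at 1.95 ± 0.177 and 1.96 ± 0.196 RPKM, had libraries that overlapped. In IRF5 KO cells given LPS and defactinib the order was Klf6 (326 ± 14.9), Spi1 (102 ± 10.4), Cebpb (93.7 ± 36.8), Klf2 (17.6 ± 2.33), Klf10 (8.94 ± 0.430), Cebpd (8.13 ± 1.78), Cebpa (3.83 ± 0.663), Klf4 (2.31 ± 0.400) and Maf (0.497 ± 0.0440). There the libraries of Spi1 and Cebpb overlapped, as did those of Klf10 and Cebpd.

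**Figure D1:**
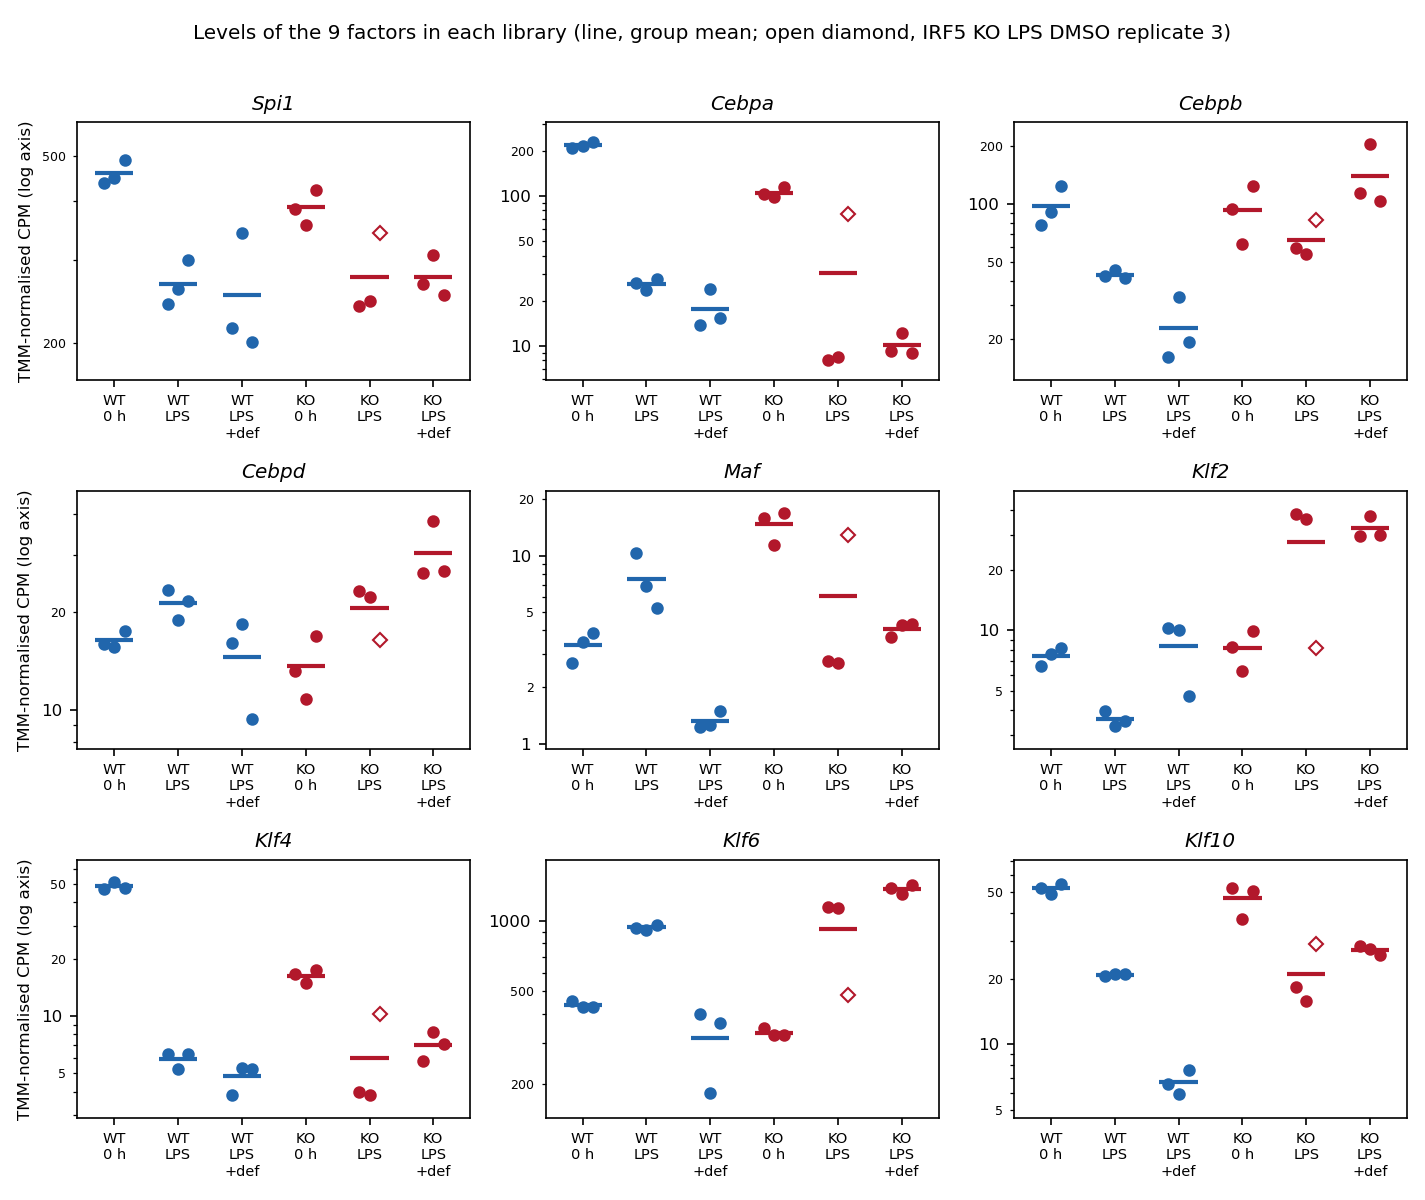
Level of each factor in every library, as TMM-normalised CPM on a log axis, with WT in blue, IRF5 KO in red, a line at the mean of each group of 3 and an open diamond for IRF5 KO LPS DMSO replicate 3. Cebpa and Klf4 are highest in the unstimulated WT libraries, Klf2 is at 29.9 to 38.4 CPM in 5 of the 6 LPS-treated IRF5 KO libraries, and the open diamond lies between the other libraries of its group and the unstimulated IRF5 KO libraries for Cebpa, Klf4, Klf6 and Klf10.

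Cebpa, whose product is a pioneer factor of the myeloid lineage, fell after LPS in both genotypes. It was at 208, 215 and 228 CPM in the unstimulated WT libraries and at 26.2, 23.4 and 28.1 CPM after LPS, groups that did not overlap, and fell by 3.07 on the log2 scale (SE 0.63, adjusted p = 0.00109), which is 8.40-fold. With defactinib and LPS its WT libraries were at 13.8, 23.9 and 15.3 CPM, overlapping those given LPS alone (log2 fold change -0.55, SE 0.59, adjusted p = 0.444). The SEs of these WT comparisons also take in the spread among the IRF5 KO libraries. In IRF5 KO cells it started lower, at 102, 98.2 and 114 CPM, and was at 8.09, 8.46 and 75.7 CPM after LPS, so that replicates 1 and 2 were about an order of magnitude below the unstimulated libraries and replicate 3 was not. The log2 fold change of -1.77 (SE 0.60, adjusted p = 0.0328) became -3.66 (SE 0.21, adjusted p = 4.25e-10) without replicate 3. It was not called without any 1 of the other IRF5 KO libraries compared, with adjusted p = 0.0613 to 0.122, nor with no filter on low counts (adjusted p = 0.0946) or in a fit of the groups compared (adjusted p = 0.212). The 3 libraries with defactinib, at 9.18, 12.1 and 9.0 CPM, lay near replicates 1 and 2, and their log2 fold change from LPS with DMSO was -1.61 (adjusted p = 0.132) with all libraries and 0.29 (adjusted p = 0.383) without replicate 3. Without replicate 1 or replicate 2 it was called lower (-2.08, adjusted p = 0.0307, and -2.07, adjusted p = 0.0342).

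The adjusted p of the unstimulated difference in Cebpa between the genotypes depended on which libraries were fitted, and why was not tested. WT libraries were all above the IRF5 KO libraries, by 1.05 on the log2 scale, and the adjusted p was 0.286 in the fit to all 18 libraries and 5.93e-07 (log2 fold change 1.06) in a fit to these 6 libraries alone. After LPS, WT stood 1.64 above IRF5 KO on the log2 scale without replicate 3 (adjusted p = 1.37e-06), and the log2 fold change was -0.25 with all libraries (adjusted p = 0.737). The sign changed with 1 library.

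Spi1, which encodes PU.1, was called in none of the 11 comparisons in the fit to all libraries. Its libraries were at 438, 449 and 490 CPM in unstimulated WT, 241, 260 and 299 CPM after LPS, and 214, 342 and 201 CPM after LPS with defactinib. In IRF5 KO they were at 386, 356 and 422 CPM, 239, 245 and 342 CPM, and 267, 307 and 253 CPM in the same order. LPS groups lay below unstimulated groups without overlap in both genotypes. The log2 fold change with LPS was -0.78 in WT (SE 0.18, adjusted p = 0.00237) and -0.50 in IRF5 KO (SE 0.18, adjusted p = 0.0414), both with adjusted p below 0.05 and short of the fold change threshold. Without IRF5 KO LPS DMSO replicate 3 the latter was -0.68 (SE 0.17, adjusted p = 0.00307). With library size alone as the scaling, which shifts the median of all genes by -0.38 in that comparison, the WT value was -1.16 and was called. LPS with defactinib against unstimulated in WT was at -0.86 (adjusted p = 0.00119), and this was called with library size alone (-1.04) and without WT LPS defactinib replicate 2 (-1.15, adjusted p = 6.55e-05). Defactinib gave -0.08 in WT (approximate 95% interval -0.43 to 0.27), and in IRF5 KO the interval was -0.35 to 0.35. Genotype differences had intervals of -0.11 to 0.59 unstimulated, -0.40 to 0.31 after LPS and -0.48 to 0.23 after LPS with defactinib. Without replicate 3 the defactinib value in IRF5 KO was 0.19 (SE 0.17, adjusted p = 0.553), and WT against IRF5 KO after LPS turned from -0.05 to 0.14 (SE 0.17, adjusted p = 0.488).

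Cebpb, the C/EBP gene tied to inflammatory activation, was lower after LPS in WT, and under LPS with defactinib it was lower in WT than in IRF5 KO. It was at 77.9, 91.8 and 124 CPM in unstimulated WT and 42.6, 45.7 and 41.5 CPM after LPS, a log2 fold change of -1.18 (SE 0.32, adjusted p = 0.00682) that was -0.97 and no longer called without WT unstimulated replicate 3. With defactinib the WT libraries were at 16.1, 33.3 and 19.3 CPM, all below those with DMSO (log2 fold change -0.92, SE 0.32, adjusted p = 0.0222), which became -1.28 and was called without WT LPS defactinib replicate 2. In IRF5 KO it was at 94.1, 62.4 and 124 CPM unstimulated, 59.4, 55.2 and 82.6 CPM after LPS, and 114, 205 and 104 CPM after LPS with defactinib, so that here the defactinib libraries lay above those with DMSO and overlapped the unstimulated ones (log2 fold change against unstimulated 0.59, SE 0.31, adjusted p = 0.120). LPS in IRF5 KO gave -0.51 (adjusted p = 0.205), or -0.71 (adjusted p = 0.116) without IRF5 KO LPS DMSO replicate 3. The difference between defactinib and DMSO, 1.10 on the log2 scale (SE 0.31, adjusted p = 0.0642, and 1.30 with adjusted p = 0.0523 without IRF5 KO LPS DMSO replicate 3), was not called by edgeR and was called by DESeq2 (1.10, adjusted p = 0.0112). Under LPS with defactinib, Cebpb was 6.15-fold lower in WT than in IRF5 KO (log2 fold change -2.62, SE 0.33, adjusted p = 1.94e-05), and the groups did not overlap.

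Cebpd, the other inducible C/EBP gene, spanned a narrower range. It was at 16, 15.7 and 17.4 CPM in unstimulated WT, 23.5, 18.9 and 21.7 CPM after LPS and 16, 18.4 and 9.40 CPM after LPS with defactinib. In IRF5 KO it was at 13.2, 10.9 and 16.9 CPM, 23.2, 22.2 and 16.4 CPM, and 26.4, 38.2 and 26.8 CPM. The WT libraries given LPS lay above both other WT groups, and neither difference passed the test (log2 fold change 0.38 with LPS, adjusted p = 0.197, and -0.55 with defactinib, adjusted p = 0.0512). LPS in IRF5 KO gave 0.59 (adjusted p = 0.0510), or 0.73 (adjusted p = 0.0122) without replicate 3. The IRF5 KO libraries given defactinib were the highest of all 18. They rose by 1.16 on the log2 scale over unstimulated IRF5 KO (SE 0.23, adjusted p = 0.000786), or by 0.97 without IRF5 KO LPS defactinib replicate 2 and 0.80 with library size alone, both short of the fold change threshold, and WT against IRF5 KO under LPS with defactinib was at -1.06 (SE 0.23, adjusted p = 0.00188). That difference was -0.80 without WT LPS defactinib replicate 3, -0.85 without IRF5 KO LPS defactinib replicate 2 and -0.97 with library size alone, all short of the fold change threshold. Summed macrophage and neutrophil markers were also highest in IRF5 KO LPS defactinib (18205 to 19152 CPM and 2540 to 2725 CPM), and their part in the levels of Cebpb, Cebpd and Klf6 there was not tested. Most of the neutrophil sum in IRF5 KO was the single gene Mmp8.

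Maf, the c-MAF gene, was called lower after LPS in IRF5 KO and lower with defactinib in WT. It was at 2.70, 3.47 and 3.90 CPM in unstimulated WT, 10.3, 6.93 and 5.24 CPM after LPS and 1.23, 1.25 and 1.49 CPM after LPS with defactinib. The WT groups did not overlap, with LPS at 1.16 on the log2 scale above unstimulated (SE 0.46, adjusted p = 0.0539) and defactinib at -2.50 against LPS alone (SE 0.49, adjusted p = 0.000560). The LPS difference in WT was called by DESeq2 (1.20, adjusted p = 0.0228), with DESeq2's size factors in edgeR (1.20, adjusted p = 0.0447), in a fit of the groups compared (1.16, adjusted p = 0.00232) and without WT LPS DMSO replicate 3 (1.36, adjusted p = 0.0450). Before LPS in IRF5 KO, Maf was at 15.8, 11.4 and 16.8 CPM, 4.37-fold above WT (log2 fold change of WT against IRF5 KO -2.13, SE 0.47, adjusted p = 0.00522). It was at 2.74, 2.68 and 12.9 CPM after LPS and at 3.68, 4.28 and 4.33 CPM after LPS with defactinib. Its log2 fold change with LPS in IRF5 KO was -1.26 (SE 0.45, adjusted p = 0.0404) with all libraries and -2.44 (SE 0.26, adjusted p = 4.34e-07) without replicate 3, and it was not called without any 1 of the other IRF5 KO libraries compared (adjusted p = 0.0518 to 0.164), with no filter on low counts (adjusted p = 0.0914) or in a fit of the groups compared (adjusted p = 0.220).

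After LPS the genotypes could not be ordered for Maf with all libraries (WT against IRF5 KO 0.29, adjusted p = 0.604, and -0.027 with library size alone), while without IRF5 KO LPS DMSO replicate 3 WT was 1.47 higher (adjusted p = 7.83e-05). Under LPS with defactinib WT against IRF5 KO was at -1.63 (SE 0.49, adjusted p = 0.0164), which was -1.54 (adjusted p = 0.0545) without WT LPS defactinib replicate 1 and -1.58 (adjusted p = 0.0514) without replicate 2. Maf had the lowest counts of the 9 members.

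Klf2, known for holding endothelial and myeloid cells in a quiescent state, separated the genotypes after LPS. In WT it was at 6.63, 7.61 and 8.21 CPM unstimulated, 3.97, 3.33 and 3.53 CPM after LPS, and 10.3, 10.1 and 4.70 CPM after LPS with defactinib. The IRF5 KO libraries were at 8.31, 6.23 and 9.99 CPM unstimulated, 38.4, 36.2 and 8.20 CPM after LPS, and 29.9, 37.5 and 30.2 CPM after LPS with defactinib. The genotypes overlapped before LPS, and within each LPS treatment, with DMSO or with defactinib, every IRF5 KO library lay above every WT library. LPS gave a log2 fold change of -1.05 in WT (SE 0.43, adjusted p = 0.0601), called by DESeq2 (-1.02, adjusted p = 0.0384), with library size alone (-1.43, adjusted p = 0.00780) and in a fit of the groups compared (-1.05, adjusted p = 3.06e-05). In IRF5 KO it rose by 1.75 (SE 0.42, adjusted p = 0.00699), and by 2.19 (SE 0.24, adjusted p = 1.06e-06) without replicate 3. Replicate 3 lay among the unstimulated libraries, and as the lone library of its group it gave 0.02. The rise was not called in a fit of the groups compared.

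WT was 7.63-fold lower in Klf2 than IRF5 KO after LPS (log2 fold change -2.93, SE 0.44, adjusted p = 8.55e-05), or -3.37 without replicate 3 (adjusted p = 1.16e-08), and 3.89-fold lower under LPS with defactinib (-1.96, SE 0.42, adjusted p = 0.00200). With replicate 3 as the lone library of its group, the value after LPS with DMSO was -1.20. Defactinib raised Klf2 in WT by 1.21 on the log2 scale (SE 0.43, adjusted p = 0.0252), with 2 of the 3 libraries near 10 CPM and the third at 4.70 CPM. This call was lost without WT LPS DMSO replicate 2 (1.18) or replicate 3 (1.21) and without WT LPS defactinib replicate 1 (1.08) or replicate 2 (1.05), with adjusted p = 0.0589 to 0.0815, and with no filter on low counts (1.18, adjusted p = 0.0548).

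Klf4, a KLF that acts in monocyte differentiation and alternative activation, fell after LPS by about as much as Cebpa in WT. It was at 47.0, 50.9 and 47.3 CPM in unstimulated WT, 6.28, 5.27 and 6.33 CPM after LPS and 3.81, 5.34 and 5.27 CPM after LPS with defactinib. The log2 fold change with LPS was -3.02 (SE 0.30, adjusted p = 1.20e-06), and the groups with and without defactinib overlapped (-0.31, SE 0.29, adjusted p = 0.368). In IRF5 KO it was at 16.6, 15 and 17.5 CPM, 3.97, 3.82 and 10.3 CPM, and 5.79, 8.22 and 7.14 CPM. Unstimulated WT was 2.96-fold higher than IRF5 KO (log2 fold change 1.57, SE 0.28, adjusted p = 0.00117). The log2 fold change with LPS in IRF5 KO was -1.43 (SE 0.29, adjusted p = 0.00290), or -2.07 (adjusted p = 1.44e-08) without replicate 3. Leaving out that library also moved WT against IRF5 KO after LPS from -0.02 (adjusted p = 0.947) to 0.61 (SE 0.16, adjusted p = 0.00347) and defactinib in IRF5 KO from 0.22 (adjusted p = 0.686) to 0.85 (SE 0.16, adjusted p = 0.00482), both still short of the fold change threshold.

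Klf6, the most abundant KLF here and an immediate responder to many stimuli, rose after LPS in both genotypes. It was at 453, 429 and 427 CPM in unstimulated WT and 936, 912 and 963 CPM after LPS, a 2.15-fold rise (log2 fold change 1.10, SE 0.28, adjusted p = 0.00436). With library size alone as the scaling this rise was 0.72 on the log2 scale and short of the fold change threshold. Defactinib left the WT libraries at 398, 183 and 365 CPM, all below both other WT groups, a log2 fold change of -1.57 from LPS alone (SE 0.28, adjusted p = 0.000245). In IRF5 KO it went from 349, 324 and 324 CPM to 1146, 1138 and 480 CPM after LPS (1.47, SE 0.28, adjusted p = 0.00224, and 1.78 without replicate 3, adjusted p = 1.87e-06). With defactinib the IRF5 KO libraries were at 1387, 1306 and 1429 CPM, the highest of all 18, and WT was 4.36-fold lower (log2 fold change -2.12, SE 0.28, adjusted p = 3.21e-05).

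Klf10, a target of TGF-beta signalling, fell after LPS in both genotypes and fell further with defactinib in WT. Its WT libraries were at 52.6, 49.3 and 54.8 CPM unstimulated, 20.5, 21 and 21.1 CPM after LPS, and 6.58, 5.92 and 7.60 CPM after LPS with defactinib. These 3 groups did not overlap, with log2 fold changes of -1.32 with LPS (SE 0.18, adjusted p = 2.66e-05) and -1.64 with defactinib (SE 0.19, adjusted p = 3.81e-06). The IRF5 KO libraries were at 52.4, 37.8 and 50.7 CPM, 18.3, 15.9 and 29.1 CPM, and 28.4, 27.5 and 25.8 CPM. The log2 fold change with LPS was -1.15 (SE 0.18, adjusted p = 0.000694), or -1.46 without replicate 3 (adjusted p = 7.09e-08) and -0.97 without replicate 2, which is short of the fold change threshold. Defactinib in IRF5 KO gave 0.37 (adjusted p = 0.229), or 0.67 (adjusted p = 0.00520) without replicate 3. Under LPS with defactinib it was 4.06-fold lower in WT than in IRF5 KO (log2 fold change -2.02, SE 0.19, adjusted p = 6.84e-07).

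**Figure D2:**
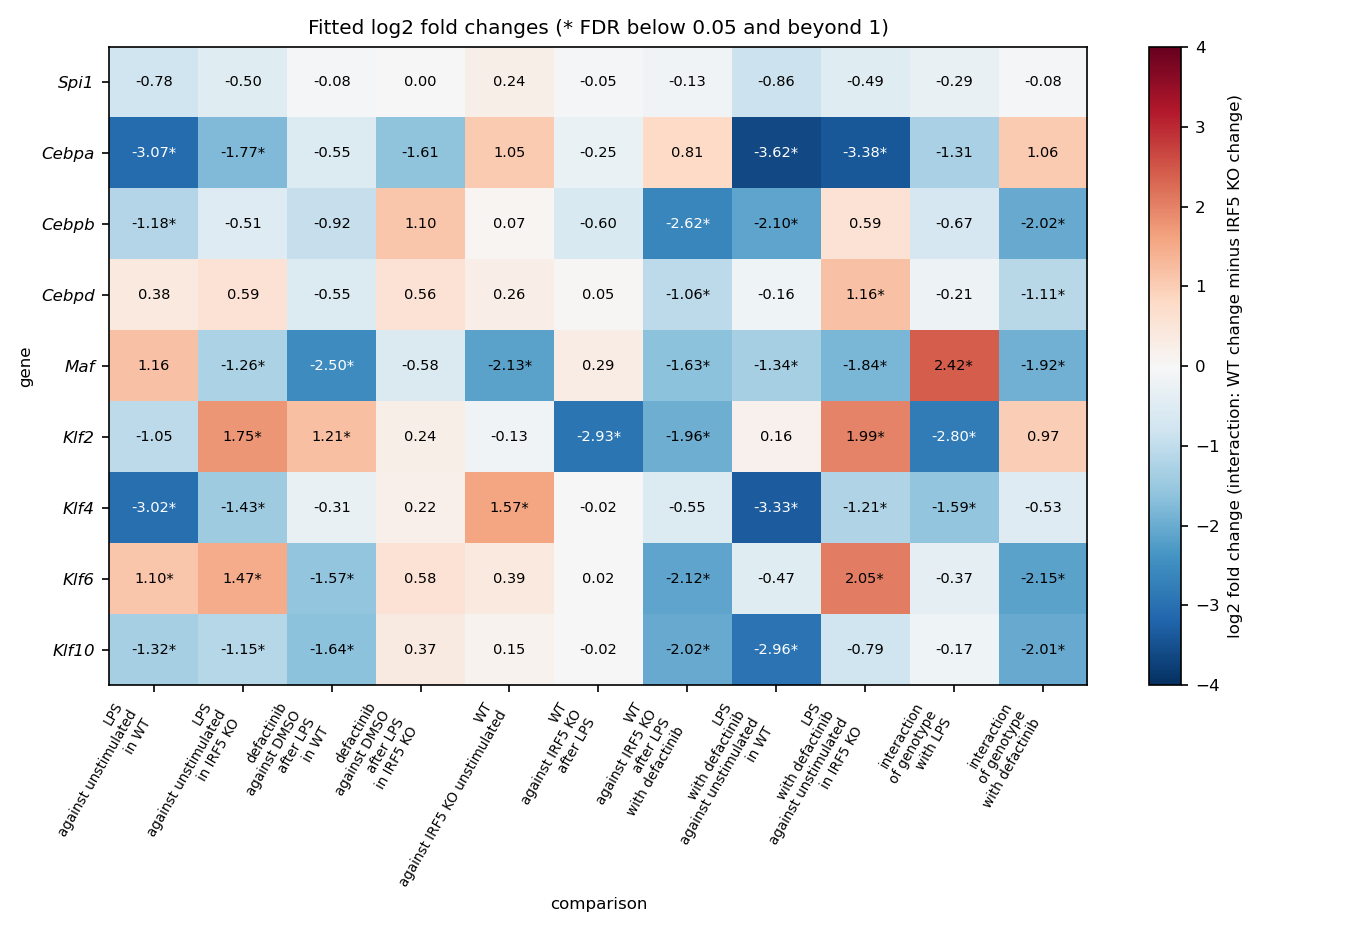
Fitted log2 fold changes of the 9 factors (rows) in the 11 comparisons (columns), coloured from blue (lower) to red (higher), with an asterisk where the adjusted p is below 0.05 and the change is beyond 1. The column of defactinib against DMSO in IRF5 KO holds no asterisk, and Spi1 has none in any column.

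Counted by comparison, a member was called where its adjusted p was below 0.05 and its log2 fold change beyond 1 in either direction. With LPS in WT, 1 of the 9 members was called higher (Klf6) and 4 lower (Cebpa, Cebpb, Klf4 and Klf10), where 11.6% of all tested genes were called higher and 9.71% lower. The members' median was -1.05 on the log2 scale and that of all tested genes -0.0045. With LPS in IRF5 KO, 2 were called higher (Klf2 and Klf6) and 4 lower (Cebpa, Maf, Klf4 and Klf10), beside 7.07% and 6.28% of all genes. The same number, 6, was called without replicate 3, where 26.2% of all genes were called in either direction, and in a fit of the 6 libraries compared the count was 0 beside 1.08% of all genes. The 6 members called with all libraries kept their sign in that fit, at 1.81 for Klf2, 1.53 for Klf6, -1.72 for Cebpa, -1.38 for Klf4, -1.21 for Maf and -1.10 for Klf10 (adjusted p = 0.0856 to 0.220).

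Defactinib against DMSO after LPS gave 1 member called higher (Klf2) and 3 lower (Maf, Klf6 and Klf10) in WT, against backgrounds of 10.4% and 18.6%. In IRF5 KO, edgeR called 0 members, with 3 at an unadjusted p under 0.05, and DESeq2 called 1 (Cebpb). Cebpd (0.56), Klf6 (0.58), Klf2 (0.24) and Maf (-0.58) had adjusted p = 0.150 to 0.765, and without replicate 3 they were at 0.42, 0.27, -0.20 and 0.59. The background there was 0.160% called higher and 0.760% called lower, and 1.45% in either direction without replicate 3, when again 0 members were called. With replicate 3 as the lone library of its group, an alternative chosen after the data were seen that assumes it varies like the other groups, 4 members were called (Cebpa, Maf, Klf2 and Klf6) beside 19.2% of all genes. On the same footing 0 members were called for LPS in IRF5 KO beside 2.71% of genes, and 2 (Cebpa and Klf2, both lower in WT) for WT against IRF5 KO after LPS beside 16% of genes.

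WT and IRF5 KO differed in 2 members unstimulated, with Klf4 higher in WT and Maf lower, where 3.80% of tested genes were called higher and 3.51% lower. Spi1 (0.24), Cebpa (1.05), Cebpb (0.07), Cebpd (0.26), Klf2 (-0.13), Klf6 (0.39) and Klf10 (0.15) had adjusted p = 0.286 to 0.941 there. After LPS only Klf2 was called among the 9 (lower in WT), with backgrounds of 14% higher and 11.8% lower, and without replicate 3 Cebpa and Maf were called as well (both higher in WT) beside 34.5% of all genes. Of the members not described above for this comparison, Cebpb was at -0.60, Cebpd at 0.05, Klf6 at 0.02 and Klf10 at -0.02 (adjusted p = 0.117 to 0.949), and without replicate 3 at -0.41, -0.09, -0.29 and 0.29. Under LPS with defactinib 6 members were called, all lower in WT (Cebpb, Cebpd, Maf, Klf2, Klf6 and Klf10), where 8.45% of genes were called higher and 8.87% lower. Spi1 (-0.13), Cebpa (0.81) and Klf4 (-0.55) were not called (adjusted p = 0.148 to 0.614). The members' median there was -1.63, against 0.02 for all tested genes.

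Against unstimulated cells, LPS with defactinib left 5 members lower in WT (Cebpa, Cebpb, Maf, Klf4 and Klf10) and 0 higher, beside 15.8% and 9.10% of genes. The call of Maf (-1.34, SE 0.49, adjusted p = 0.0301) was lost without WT unstimulated replicate 2 or 3 and without any 1 of the WT LPS defactinib libraries, the value then lying between -1.42 and -1.22, and with no filter on low counts (-1.39, adjusted p = 0.0612). Cebpa was at -3.62, Klf4 at -3.33, Klf10 at -2.96 and Cebpb at -2.10 (adjusted p = 4.91e-08 to 0.000415), while Cebpd (-0.16), Klf2 (0.16) and Klf6 (-0.47) were not called (adjusted p = 0.159 to 0.765). In IRF5 KO, 3 members were higher (Cebpd, Klf2 and Klf6) and 3 lower (Cebpa, Maf and Klf4), beside 7.85% and 16.2%. The largest of these were Cebpa, which fell by 3.38 (SE 0.64, adjusted p = 0.000691), and Klf6, which rose by 2.05 (SE 0.28, adjusted p = 8.51e-05). Klf2 was at 1.99, Maf at -1.84 and Klf4 at -1.21 (adjusted p = 0.00132 to 0.00390). Spi1 (-0.49, adjusted p = 0.0303) and Klf10 (-0.79, adjusted p = 0.00198) were short of the fold change threshold, and Klf10 was called with library size alone (-1.15).

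Whether the response differed between the genotypes was tested by the interaction, the change in WT minus the change in IRF5 KO. For LPS it was called for Maf (2.42, SE 0.65, adjusted p = 0.0193), Klf2 (-2.80, SE 0.60, adjusted p = 0.00589) and Klf4 (-1.59, SE 0.40, adjusted p = 0.0143), 3 of 9 members beside 6.33% of genes called higher and 3.49% lower. Without replicate 3, Maf (3.60) and Klf2 (-3.24) were called and Klf4 (-0.95) was not, beside 23.6% of genes. The call of Maf was also lost without WT unstimulated replicate 1 (2.29, adjusted p = 0.0524) or WT LPS DMSO replicate 1 (2.10, adjusted p = 0.0535), with no filter on low counts (2.40, adjusted p = 0.0528) and in a fit of only the groups compared (2.40, adjusted p = 0.0505). With replicate 3 as the lone library of its group, Cebpa (-2.62), Maf (1.33) and Klf4 (-2.38) were called beside 6.48% of genes, and Klf2 was not (-1.08, adjusted p = 0.102). Klf6 and Klf10, which moved the same way with LPS in both genotypes, had interactions of -0.37 (SE 0.39, adjusted p = 0.521) and -0.17 (SE 0.25, adjusted p = 0.663), or -0.68 (SE 0.27, adjusted p = 0.0521) and 0.13 (SE 0.17, adjusted p = 0.547) without replicate 3. Spi1 (-0.29), Cebpa (-1.31), Cebpb (-0.67) and Cebpd (-0.21) had adjusted p = 0.282 to 0.670, and without replicate 3 they were at -0.10, 0.59, -0.48 and -0.35.

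For defactinib the interaction was called for 5 members, all negative: Cebpb (-2.02, SE 0.45, adjusted p = 0.00252), Cebpd (-1.11, SE 0.32, adjusted p = 0.0131), Maf (-1.92, SE 0.66, adjusted p = 0.0332), Klf6 (-2.15, SE 0.39, adjusted p = 0.000562) and Klf10 (-2.01, SE 0.26, adjusted p = 2.57e-05). Of all genes 10.5% were called higher and 12.3% lower. When IRF5 KO LPS DMSO replicate 3 was left out, the count was 6 beside 31.6% of genes: Klf2 (1.41) and Klf4 (-1.17) were added, Cebpd (-0.97) was lost, and Cebpa changed from 1.06 to -0.84 without being called. Klf6 (-1.84), Klf10 (-2.31), Cebpb (-2.22) and Maf (-3.10) were called there too. Cebpd was also lost without WT LPS defactinib replicate 3 (-0.84) or IRF5 KO LPS defactinib replicate 2 (-0.89) and with library size alone (-0.79). Maf was lost on leaving out any 1 of WT LPS DMSO replicates 1 and 2, WT LPS defactinib replicates 1 and 2, IRF5 KO LPS DMSO replicates 1 and 2, and IRF5 KO LPS defactinib replicates 1 and 2, at -1.95 to -1.53, or of IRF5 KO LPS defactinib replicate 3 (-1.84). It was lost too with library size alone (-1.52, adjusted p = 0.0895), with no filter on low counts (-1.91, adjusted p = 0.0811) and in a fit of only the groups compared (-1.89, adjusted p = 0.0878). With replicate 3 as the lone library of its group, Cebpa (2.40), Cebpd (-1.40), Klf6 (-3.06) and Klf10 (-1.51) were called beside 19.1% of genes, while Cebpb (-1.65, adjusted p = 0.0625) and Maf (-0.82, adjusted p = 0.125) were not. With all libraries Spi1 (-0.08), Cebpa (1.06), Klf2 (0.97) and Klf4 (-0.53) had adjusted p = 0.210 to 0.824, and Spi1 was at -0.27 without replicate 3.

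**Figure D3:**
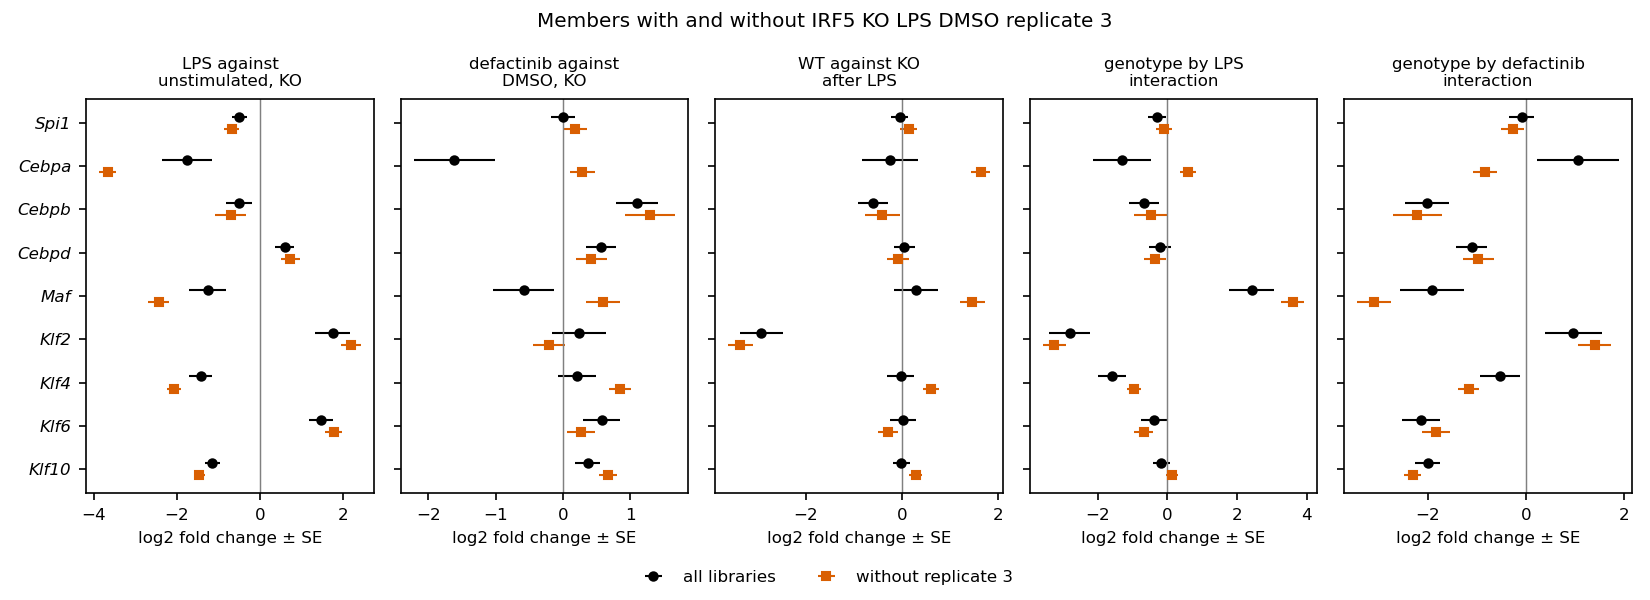
Log2 fold changes (x axis, ± SE) of the 9 factors in the 5 comparisons that use IRF5 KO LPS DMSO, with all libraries (black circles) and without its replicate 3 (orange squares). Cebpa and Maf move the most, and the Klf2 difference between WT and IRF5 KO after LPS lies far below 0 in both.

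The relatives, partners and target genes of the members were read from fixed lists, and for each list the 3 genes with the highest mean log2 CPM (not per length) are named beside those called. Of 13 other KLF genes, 9 were tested. With LPS in WT 4 of them rose (Klf5 by 4.21, Klf8 by 1.99, Klf11 by 1.97 and Klf3 by 1.88 on the log2 scale) and 0 fell. Defactinib lowered 7 of the 9 in WT: Klf5 (-5.28), Klf3 (-4.19), Klf8 (-3.41), Klf11 (-3.36), Klf9 (-2.69), Klf13 (-1.82) and Klf16 (-1.12). The list's median there was -2.69, against 0.09 for all tested genes. The 3 highest were Klf7, Klf13 and Klf9, of which Klf7 was at 0.37 with LPS (not called) and -0.86 with defactinib in WT (not called). After LPS 5 of the 9 were higher in WT than in IRF5 KO (Klf8, Klf5, Klf3, Klf9 and Klf11, by 2.63 to 1.35), or 7 of 9 without replicate 3, the opposite side from Klf2.

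Of the other C/EBP genes, all 3 were tested and none was called with LPS in WT, with Cebpg at -0.29, Ddit3 at -0.68 and Cebpe at 0.96. With defactinib in WT Cebpg (-1.72) and Cebpe (-1.22) fell. Cebpe, which drives late neutrophil maturation and is also 1 of the neutrophil markers counted above, was lower in WT than in IRF5 KO before LPS (-3.84). Among the 5 other MAF genes read, 4 were tested. Mafk and Maff rose by 1.81 and 1.07 with LPS in WT and fell with defactinib (-2.44 and -1.57), Mafa fell by 3.31 with LPS, and Mafg, at 0.02 and -0.26, was called in neither.

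The 27 partners of PU.1 and other myeloid lineage factors, all tested, split in direction. LPS in WT raised 5 (Irf8 by 3.24, Spic by 2.84, Gfi1 by 2.69, Mitf by 2.03 and Zeb2 by 1.63) and lowered 6 (Id3 at -6.16, Tfeb at -2.70, Gfi1b at -2.44, Runx1 at -1.82, Spib at -1.53 and Rxra at -1.51). Of all tested genes, 11.6% were called higher and 9.71% lower there. Defactinib in WT lowered 11 and raised 4, beside 18.6% and 10.4% of all tested genes, with Irf4 at -4.21, Spic at -3.56 and Irf8 at -2.37 against Id3 at 5.90 and Spib at 2.90. The others called were Gfi1 (-2.53), Mitf (-1.94), Id2 (-1.91), Tfec (-1.82), Bhlhe41 (-1.73), Bcl6 (-1.44), Zeb2 (-1.27), Mef2a (-1.14), Batf3 (1.19) and Nr1h3 (1.17). Bhlhe40, among the 3 highest of the list with Zeb2 and Id2, was at -0.63 with LPS and -0.89 with defactinib in WT and was not called. The list's medians were -0.19 with LPS and -0.89 with defactinib, against -0.0045 and 0.09 for all tested genes.

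Target genes of the factors were read in the same comparisons. Of 16 PU.1 and C/EBP-alpha targets, 15 were tested, and with LPS in WT 1 was called (Cd14, the LPS co-receptor, 2.64 higher), where Cebpa fell 8.40-fold. Itgax, Lyz2 and Csf2rb, the 3 highest, were at 0.08, -0.01 and -0.74. Defactinib in WT lowered Cd14 (-1.93) and raised Adgre1 (1.14). Of 11 C/EBP-beta and C/EBP-delta targets, 8 rose with LPS in WT (Il6 by 12.74, Ptgs2 by 9.35, Tnfaip6 by 5.71, Il1b by 5.45, Csf3 by 4.0, Clec4e by 3.01, Ptx3 by 2.96 and Lcn2 by 2.50), and the list's median was 3.01 while Cebpb fell. Defactinib in WT lowered 7 (Il6, Csf3, Ptx3, Tnfaip6, Il1b, Ptgs2 and Clec4e, from -7.31 to -1.87) and raised Saa3 by 1.38. Under LPS with defactinib 7 of the 11 were lower in WT than in IRF5 KO (Il6, Ptgs2, G0s2, Tnfaip6, Ptx3, Il1b and Hp, from -4.04 to -1.90). After LPS with DMSO, where Cebpb was at -0.60 and Cebpd at 0.05 and neither was called, 5 of the 11 were higher in WT (Il6 by 2.71, Clec4e by 1.84, Il1b by 1.71, Tnfaip6 by 1.53 and Ptx3 by 1.30) and 2 lower (Hp at -1.93 and G0s2 at -1.82), with a median of 1.14, or 6 and 2 with a median of 2.00 without replicate 3.

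Of 12 c-MAF targets, 10 were tested. With LPS in WT Il10 rose by 5.18 and Mertk by 1.18, and with defactinib they fell (-3.19 and -1.65). Of all tested genes, 11.6% were called higher with LPS and 18.6% lower with defactinib. The 3 highest, Mrc1, C1qb and C1qc, were at 0.05, -0.06 and -0.15 with LPS and at -0.22, -0.64 and -0.53 with defactinib. Before LPS F13a1, Mrc1 and Gas6 were higher in WT than in IRF5 KO by 6.22, 1.46 and 1.23, where Maf was lower in WT. Among 8 tested KLF targets, LPS in WT raised Cdkn1a by 1.64 and lowered S1pr1 (-3.34) and Smad7 (-1.5), beside 11.6% and 9.71% of all tested genes. Cd36 and Hmox1, the highest with Cdkn1a, were at -0.16 and -0.31. With defactinib in WT 1 of the 8 was called higher and 2 lower, beside 10.4% and 18.6%. The list's median was then 0.05, against 0.09 for all tested genes. Under LPS with defactinib 5 of the 8 were lower in WT than in IRF5 KO (S1pr1, Retnla, Itgb7, Smad7 and Cdkn1a, from -4.47 to -1.05), and 3 of these (Retnla, S1pr1 and Itgb7, from -6.81 to -2.04) were already lower before LPS, where Klf2 was at -0.13 (adjusted p = 0.913). After LPS with DMSO 4 of the 8 were lower in WT (Retnla at -5.46, S1pr1 at -5.18, Itgb7 at -2.38 and Smad7 at -1.61) and Cdkn1a was higher by 1.62, or 4 lower and 2 higher without replicate 3.

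The 13 immediate-early genes, read because Klf2, Klf6 and Klf10 are themselves induced early by many stimuli, were called in different numbers in the genotypes. At 2 h of LPS in WT 0 were higher and 1 was lower (Egr2, at -3.19), whereas in IRF5 KO 9 were higher and 0 lower (Egr1 at 6.24, Fosb at 4.89, Fos at 2.76, Ier2 at 2.75, Zfp36 at 2.61, Nr4a1 at 2.53, Junb at 2.07, Ier3 at 2.06 and Dusp1 at 1.69). Without replicate 3 the counts in IRF5 KO were 9 higher and 1 lower. After LPS 8 of the 13 were lower in WT than in IRF5 KO (Egr1 at -5.44, Fosb at -3.74, Fos at -3.09, Ier2 at -2.97, Zfp36 at -2.57, Nr4a1 at -2.38, Egr2 at -2.06 and Ier3 at -1.74), and none was higher, while without replicate 3 the counts were 8 lower and 1 higher. Atf3 and Junb, among the 3 highest with Zfp36, were at 0.64 and -0.56 in that comparison. Defactinib in WT raised 6 (Egr1 by 5.13, Fos by 3.83, Fosb by 2.93, Ier2 by 2.76, Zfp36 by 2.08 and Ier3 by 1.38) and lowered Atf3 (-2.23) and Egr3 (-1.04). Klf2 was called in the same direction as these 8 and these 6, while Klf6 and Klf10 fell with defactinib in WT.

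**Figure D4:**
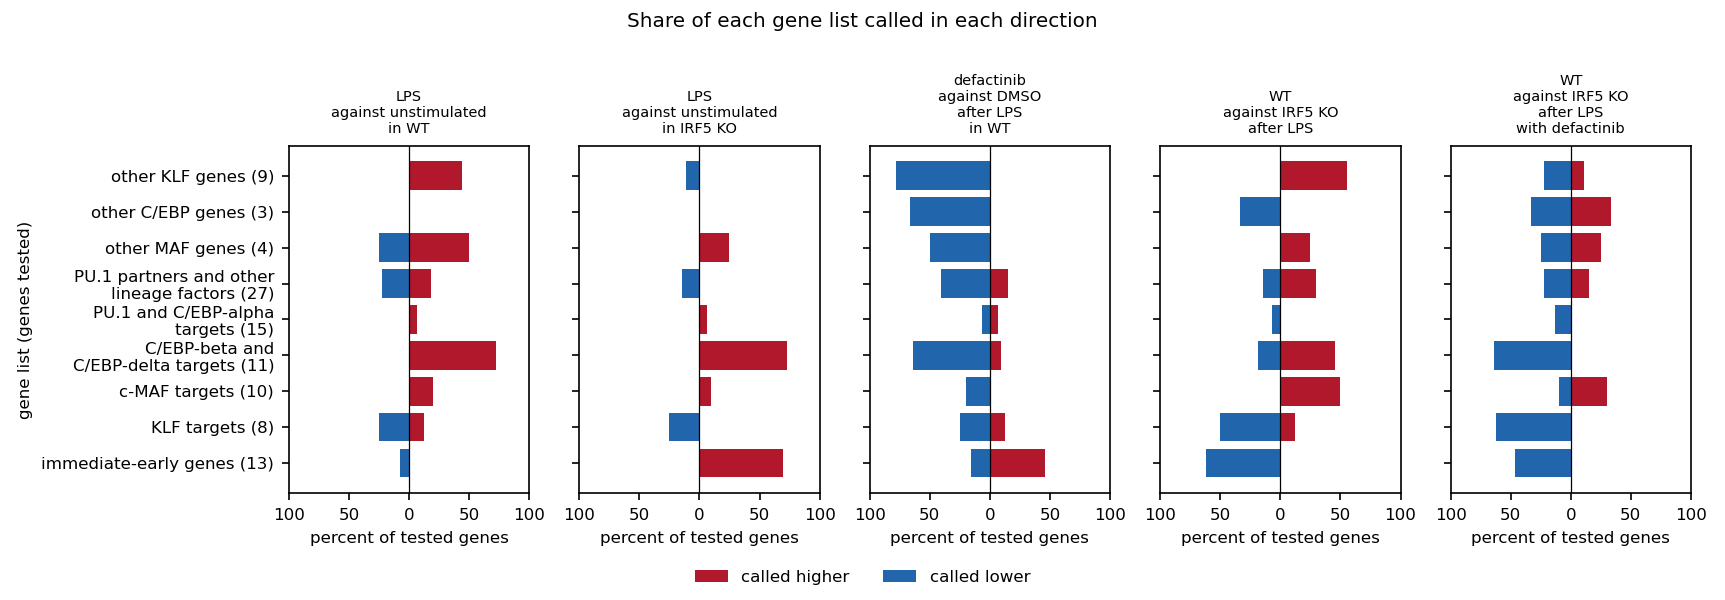
Share of the tested genes of each list (number in brackets) called higher (red, to the right) or lower (blue, to the left) in 5 comparisons, in percent. The other KLF genes are lower with defactinib in WT in 7 of 9 cases, and the immediate-early genes are higher with LPS in IRF5 KO in 9 of 13 and in WT in 0 of 13.

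The genes whose pattern was most like that of each member were found by Pearson's r of log2 CPM over the 18 libraries, among genes whose mean log2 CPM was 3 or more. These libraries share groups and the strong LPS response, so r is a description. For Cebpa they were Plau, Fgd3 and Sephs2 (r = 0.986 to 0.981), for Klf6 Foxj3, March7 and Prdm1 (0.987 to 0.971), and for Klf10 Cactin, Gtf3c4 and Flcn (0.984 to 0.976). Those for Maf were Fam20c, P2ry13 and Fgd4 (0.966 to 0.945), for Klf4 Cd151, Ptpn1 and Tuba4a (0.965 to 0.954), and for Klf2 Prpf19, Gpi1 and Nfyc (0.954 to 0.945). Spi1 was closest to Ipo13, Wdr41 and Tuba4a (0.926 to 0.920), Cebpb to E4f1, Pus1 and Khsrp (0.919 to 0.910) and Cebpd to Mylip, Tgif1 and Atf4 (0.877 to 0.865). Among the members themselves r was highest for Cebpa with Klf4 (0.917), Spi1 with Klf4 (0.898) and Spi1 with Cebpa (0.888), and lowest for Cebpa with Klf6 (-0.616).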

How the data were processed

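RNA was sequenced as 150 bp read pairs from 18 libraries, and the authors deposited raw counts per gene, made by aligning reads to mm10 with STAR (version not given in the sources used here) and counting uniquely mapped pairs on the reverse strand with featureCounts 1.6.3. The deposited table also holds exon length, used for RPKM. Columns were mapped to samples by name.

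Counts were analysed with edgeR 4.0.16 in R 4.3.3: filterByExpr, TMM scaling, and 1 robust quasi-likelihood fit of the 6 group means without a block. Contrasts were tested two-sided, with Benjamini-Hochberg adjustment over all 15663 genes tested. A gene was called at an adjusted p below 0.05 and an absolute log2 fold change above 1. The SE is the log2 fold change divided by the square root of F, and the 95% intervals, which follow from it, are approximate. The script was tested on simulated data with 200 changed genes.

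The 9 members are all named in every comparison. From each list, the 3 genes of highest mean log2 CPM and every gene called in the fit to all libraries are named where the comparison is described, and for each member the 3 genes of highest Pearson r among those whose mean log2 CPM was 3 or more. For the KLF targets with defactinib in WT only counts and medians are given. Members and lists were chosen with earlier results of these data known. Some genes of the lists are not reported here and were left out of the list counts and medians after these were first computed, with the fit and its adjustment as before. Alternatives were DESeq2 1.42.0, DESeq2's size factors in edgeR, library size alone, no filter, only the groups compared, a replicate block, no fold change threshold and leaving out each library. A left-out library was read only in the comparisons that use its group. Leaving out IRF5 KO LPS DMSO replicates 1 and 2 together was added after seeing the data.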

Additional observations from a re-analysis of the deposited data

Results flagged for a closer look

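For 8 results the response differed between WT and IRF5 KO by the test of the interaction term (the log2 fold change in WT minus that in IRF5 KO, edgeR's quasi-likelihood test). The LPS response differed for Maf (2.42), Klf2 (-2.80) and Klf4 (-1.59). The defactinib response differed for Cebpb (-2.02), Cebpd (-1.11), Maf (-1.92), Klf6 (-2.15) and Klf10 (-2.01). All 8 use the IRF5 KO LPS DMSO group, whose replicate 3 stood apart. Without it Klf4 under LPS (-0.95) and Cebpd under defactinib (-0.97) were short of the fold change threshold and the other 6 were called. With replicate 3 as the lone library of its group, Klf2 under LPS (-1.08, adjusted p = 0.102), Cebpb under defactinib (-1.65, adjusted p = 0.0625) and Maf under defactinib (-0.82, adjusted p = 0.125) were not called by edgeR. The call of Maf was also lost under both responses with no filter on low counts and in a fit of only the groups compared.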

How the results depend on the processing

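Of 99 member and comparison pairs, 43 were called, and 24 of these kept their sign and call under every other setting that gave them an adjusted p. Under no setting were 38 pairs called. Dropping the fold change threshold was applied to the counts only and is not in this tally. When each library of the groups compared was left out in turn, the number of members called was 4 to 6 for LPS in WT (5 with all libraries), 3 to 6 for LPS in IRF5 KO (6), 3 to 4 for defactinib in WT (4), 0 to 1 for defactinib in IRF5 KO (0), 2 to 2 for WT against IRF5 KO unstimulated (2), 1 to 3 after LPS (1), 5 to 6 after LPS with defactinib (6), 4 to 5 for LPS with defactinib against unstimulated in WT (5), 5 to 6 in IRF5 KO (6), 2 to 3 for the LPS interaction (3) and 3 to 6 for the defactinib interaction (5). Libraries of other groups, which also enter the estimate of the spread, were not left out for a comparison. Leaving out IRF5 KO LPS DMSO replicates 1 and 2 together, chosen after seeing the data, also moved the counts, as given above beside the shares of all genes. Fitting only the groups compared gave 0 for LPS in IRF5 KO, DESeq2 gave 1 for defactinib in IRF5 KO, and library size alone gave 3 for the defactinib interaction (Cebpd and Maf lost). The cause of these changes was not tested. DESeq2 gave no adjusted p for Cebpa in any of the 11 comparisons, so the pairs of Cebpa were not judged by DESeq2 in the tally.

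Signs turned when a library of the IRF5 KO LPS DMSO group was dropped. Leaving out 1 library at a time, defactinib in IRF5 KO ranged from -2.08 to 0.29 for Cebpa, from -0.95 to 0.59 for Maf and from -0.20 to 0.54 for Klf2. WT against IRF5 KO after LPS ranged from -0.72 to 1.64 for Cebpa and from -0.076 to 1.47 for Maf. The Cebpa interactions ranged from -1.78 to 0.59 (LPS) and from -0.84 to 1.55 (defactinib). In WT against IRF5 KO after LPS, Cebpa was at 0.021 with the replicate block, and Maf was at -0.027 with library size alone, -0.020 once WT LPS DMSO replicate 1 was dropped, -0.071 once IRF5 KO LPS DMSO replicate 1 was, and -0.79 without replicates 1 and 2 together. Without those 2 libraries the defactinib interactions of Klf2 and Klf4 were -0.74 and 0.28. The cause was not tested.

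With the replicate number as a block (replicate block) the counts, in the order above, were 6, 6, 4, 0, 2, 1, 6, 5, 6, 3 and 5, with 1 call gained (Maf with LPS in WT, 1.22) and 0 lost. Over 45 pairs of same-numbered libraries the median correlation of deviations from the group means was 0.00455 (-0.105 to 0.278), so the numbers were not taken to pair the libraries. Library size alone moved the median of all genes by -0.38 to 0.33 across the comparisons. Depth limits Maf most, with as few as 52 counts in a library.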
